A study of Brachypodium distachyon with 11 samples.

Results

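The CBF genes CBF2, CBF3, CBF4, CBF5 and CBF7 of the temperate grass Brachypodium distachyon were examined for deposited chromatin immunoprecipitation (ChIP-seq) peaks of the clock protein ELF3, the photoreceptor PHYC and the pseudo-response regulator PRR37. The members are the 5 genes carrying these CBF symbols among 25449 protein-coding genes of chromosomes 1 to 5 in the RefSeq gene table. Every deposited peak of 10 libraries that overlapped one of these genes extended by 2 kb on each side was taken, which gave 51 peaks. The identity of the genes rests on the table's symbols, since their protein sequences were not used here.

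All plants were Bd21-3 seedlings, 2 weeks old and grown at 20 °C, that overexpressed a tagged protein (ELF3_OX, phyC_OX or PRR37_OX), and chromatin was pulled down with an anti-FLAG M2 gel from 3 g of seedlings per set. The 7 ELF3 libraries came from zeitgeber time (ZT, hours after lights on) 0 in long days (LD), short days (SD) and constant light (LL), from ZT4 in LD and SD, and from ZT20 in LD and SD. Constant light has no lights on, so for LL the ZT0 is only the time named in the label. The 2 PHYC libraries came from LD at ZT20 and the PRR37 library from LD at ZT4. According to the study, the ELF3 and PHYC transgenes were GFP-FLAG fusions under a UBIQUITIN promoter, so these lists describe overexpressed, tagged protein, and a ChIP from untagged plants was not analysed here. PRR37 is also known as PPD1. The labels do not state whether different plants were used for the PHYC pair, so p-values reflect only the spread between these libraries, which may be technical, and each other condition has 1 library.

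CBF proteins, also called DREB1, are transcription factors of the AP2 family. In Arabidopsis and in cereals they are induced by cold, bind the C-repeat or dehydration-responsive element in promoters of cold-regulated genes, and raise freezing tolerance. In Arabidopsis the circadian clock gates how strongly CBF genes respond to cold, and pseudo-response regulators are among their known repressors. ELF3 is part of the evening complex, which represses target genes, and phytochromes such as PHYC are red and far-red light receptors.

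The 5 genes lie on chromosome 4 within 35.7 kb of each other, in the order CBF2, CBF3, CBF4, CBF5 and CBF7 along increasing coordinates. They are 995 to 1728 bp long, against a median of 3149 bp for protein-coding genes, so their extended windows of 4995 to 5728 bp are short ones. The gap between CBF2 and CBF3 is 3482 bp and that between CBF3 and CBF4 is 3745 bp, with no annotated gene in either. CBF4 and CBF5 are 12291 bp apart with 3 other genes between them, and CBF5 and CBF7 are 9833 bp apart with 1 pseudogene between them. The extended windows of CBF2 and CBF3 share 518 bp, and those of CBF3 and CBF4 share 255 bp. Of the 51 peaks, 5 were counted for both CBF2 and CBF3, and none for both CBF3 and CBF4. The table gives no strand, so the ends of a gene are called lower and upper by coordinate, and which of them is the promoter end is not given here.

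No CBF gene had a peak with a deposited q under 0.01, the threshold named in the study's methods, in any of the 10 libraries, that is in 0 of 50 pairs of gene and library. Weaker deposited peaks were frequent: 40 of the 50 pairs held at least 1, most often at the lower end of CBF4, in the gap between CBF3 and CBF4, and beyond the upper end of CBF7. The lowest q of the 51 peaks was 0.215, and 7 of them had a q below 1. The genes are therefore described here by weak peaks. The deposited ELF3 lists of ZT20 hold 341 (LD) and 167 (SD) peaks with q under 0.01. The study reports far more bound ELF3 peaks for this time point than both lists together hold past the threshold. The study's own set of bound peaks was therefore not obtained by filtering these lists on their deposited q values. How that set relates to the lists was not tested. The named threshold is the same, but on these lists it keeps fewer ELF3 peaks of ZT20 than the study reports. A CBF gene outside q 0.01 here is therefore not shown to be outside that set.

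The strongest CBF peak stayed well short of the threshold in every library. In the ELF3 libraries the strongest CBF peak had a −log10 p of 2.60, 3.56 and 3.32 at ZT0 in LD, SD and LL. At ZT4 it was 1.92 in LD and 2.36 in SD, and at ZT20 it was 3.26 in LD and 2.58 in SD. It was 3.89 and 2.96 in PHYC replicates 1 and 2, and 3.82 in the PRR37 library. The weakest peak past q 0.01 had a −log10 p between 5.73 and 6.90, depending on the library. The share of all protein-coding genes with a peak past that threshold was itself low. For ELF3 the ZT0 shares were 1.4% (LD), 2.12% (SD) and 2.36% (LL), the ZT4 shares 1.05% (LD) and 0.955% (SD), and the ZT20 shares 1.47% (LD) and 0.731% (SD). It was 2.05% and 0.735% in PHYC replicates 1 and 2, and 0.114% in the PRR37 library. Over all 10 libraries together 4.04% of protein-coding genes passed at least once, so 0 of 5 genes is near that background and says little about the CBF genes as a group.

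**Figure D1:**
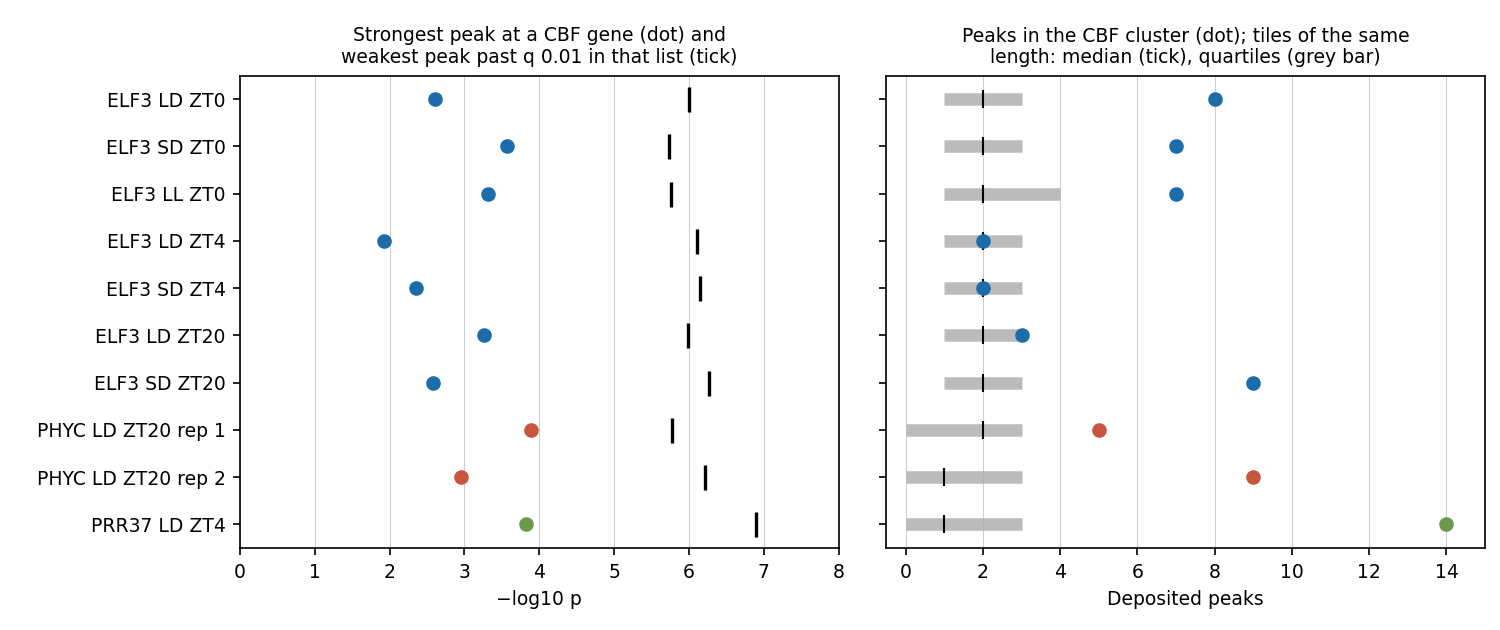
Left, −log10 p of the strongest peak within 2 kb of any CBF gene (dot) and of the weakest peak with q under 0.01 in the same list (tick), for each library. Right, number of deposited peaks with a summit in the CBF cluster (dot) beside the median (tick) and quartiles (grey bar) of tiles of the same length across the genome. Every dot on the left lies below its tick, and on the right each ELF3 library of ZT4 has 2 peaks, against 14 in the PRR37 library.

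All deposited peaks had a −log10 p above 1, which sets a permissive floor. At that floor the number of CBF genes with a peak was 5, 5 and 4 of 5 in ELF3 libraries of ZT0 in LD, SD and LL, 2 of 5 in both ELF3 libraries of ZT4, 3 of 5 in ELF3 LD ZT20 and 5 of 5 in ELF3 SD ZT20. It was 4 and 5 of 5 in PHYC replicates 1 and 2 and 5 of 5 in the PRR37 library. Among all protein-coding genes the share with a deposited peak was 46.3%, 45% and 49.1% in ELF3 libraries of ZT0 in LD, SD and LL, 44.8% and 42% in ELF3 LD ZT4 and SD ZT4, and 44.7% and 44.2% in ELF3 LD ZT20 and SD ZT20. It was 41.3% and 37.4% in PHYC replicates 1 and 2 and 38.2% in the PRR37 library. The genes are not independent of each other here, because neighbouring members share peaks, and no library was tested against its background share.

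**Figure D2:**
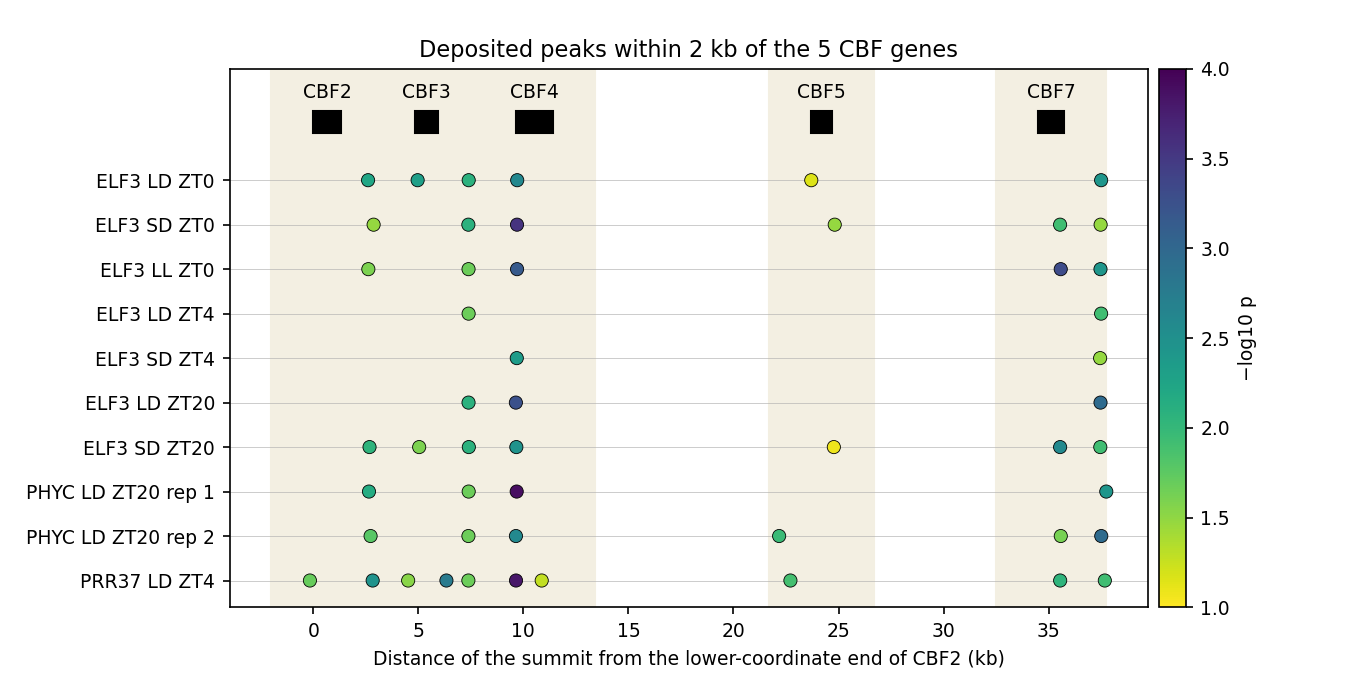
Summits of the 51 deposited peaks (dots, coloured by −log10 p from 1 to 4) along the cluster, as distance in kb from the lower end of CBF2, with 1 row per library. Black boxes are the CBF genes and shaded bands the genes extended by 2 kb. Columns of dots at the lower end of CBF4 (9 libraries), between CBF3 and CBF4 (9 libraries) and beyond CBF7 (10 libraries) recur across targets, whereas the CBF5 band holds 5 scattered dots.

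The 51 peaks merged into 13 sites when peaks that overlapped by at least 1 bp were joined. Of these sites, 3 were listed in 9 or 10 libraries, and 4 were listed in the PRR37 library alone. Sites of 9 or 10 libraries were not rare in the genome: 4995 of 37936 merged sites reached that number, and 20.2% of protein-coding genes had one within 2 kb. CBF3, CBF4 and CBF7 each had one, and CBF2 and CBF5 had none. Only CBF7 had a deposited peak in all 10 libraries, which held for 16.4% of protein-coding genes.

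A depth was recovered for each library so that these sites could be compared between lists. The deposited fold enrichment and −log10 p together fix the number of fragments at a summit and the local background, if the fold is taken as the scaled pileup plus 1 over the background plus 1 and p as a Poisson upper tail. Each of the 51 CBF peaks had exactly 1 such solution. One fragment was worth between 0.116 (ELF3 SD ZT20) and 0.266 (ELF3 SD ZT0) units of background depth, so the deepest ChIP library was 8.65 times and the shallowest 3.75 times as deep as the background. The scaled pileup used below is the fragment number times that worth, with exact 95% Poisson intervals that cover counting error only and not the choice of the summit as a maximum. CBF peaks rested on 24 to 79 fragments, with a median of 45.

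The highest fold and the highest −log10 p among the CBF peaks were at the lower end of CBF4. In ELF3 LL ZT0, LD ZT4 and SD ZT20 and in PHYC replicate 2, the strongest CBF peak was at CBF7 instead. The site spanned 40878438 to 40878798 on chromosome 4, in coordinates of the deposited peaks, and its summits in 9 libraries fell within 64 bp of each other. The earliest summit lay 17 bp outside the gene (ELF3 LD ZT20) and the farthest 47 bp inside it (ELF3 LD ZT0). In the ELF3 libraries the fold enrichment was 2.81, 3.05 and 2.86 at ZT0 in LD, SD and LL, 2.50 at ZT4 in SD, and 3.00 and 2.46 at ZT20 in LD and SD. ELF3 LD ZT4 was the only library with no deposited peak there. The fold was 3.26 and 2.78 in PHYC replicates 1 and 2 and 3.44 in the PRR37 library, so 1 of the lists of the other proteins lay within the ELF3 range and 2 lay above it.

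The scaled pileup at the end of CBF4 is solved from these fold and −log10 p values. It restates them in units of background depth and is no second measurement. It was 6.83 (interval 5.002 to 9.11) in ELF3 LD ZT0, 8.26 (5.61 to 11.7) in ELF3 SD ZT0 and 7.18 (5.15 to 9.74) in ELF3 LL ZT0. It was 6.47 (4.36 to 9.23) in ELF3 SD ZT4, 7.39 (5.43 to 9.83) in ELF3 LD ZT20 and 6.13 (4.59 to 8.02) in ELF3 SD ZT20. PHYC replicates 1 and 2 had 8.27 (6.10 to 11.0) and 6.79 (4.67 to 9.54), and the PRR37 library had 8.90 (6.87 to 11.3). All of these intervals overlap. Each lies above its local background, which was 1.79 to 2.04. Peaks are listed only where the summit exceeds the background, so this is no separate evidence of signal. The ELF3 mean was 7.04 ± 0.75 (SD, n = 6), against 7.99 ± 1.08 (SD, n = 3) for PHYC and PRR37 (difference −0.95, exact two-sided permutation test, p = 0.190, smallest possible p = 0.0119). This and the tests at the next 2 recurrent sites are 3 comparisons of one kind, and their p-values are unadjusted. A library without a listed peak is left out of these means, whereas the percentiles further below count it as 0. The ELF3 libraries in these means also differ in time and photoperiod. In CBF4 a further peak, 1213 bp inside from the lower end, was listed in the PRR37 library alone with a fold of 1.88.

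CBF3 was listed in 9 libraries through the gap that separates it from CBF4. The site there spanned 40875993 to 40876629, and its summits lay 1468 to 1490 bp beyond the upper end of CBF3, within 22 bp of each other. The fold enrichment was 2.19, 2.17 and 1.81 in ELF3 libraries of ZT0 in LD, SD and LL, 1.88 in ELF3 LD ZT4, and 2.02 and 2.03 in ELF3 LD ZT20 and SD ZT20. It was 1.99 and 1.89 in PHYC replicates 1 and 2 and 1.84 in the PRR37 library. ELF3 SD ZT4 was the library without a peak. The 9 peaks took only 2 different −log10 p values, 1.67 and 2.09, because the local background was 4 in every one of them and p moves in whole steps of the scaled pileup.

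At this gap the scaled pileup was 9.95 and 9.86 in ELF3 LD ZT0 and SD ZT0, 8.05 in ELF3 LL ZT0, 8.39 in ELF3 LD ZT4, and 9.12 and 9.14 in ELF3 LD ZT20 and SD ZT20. PHYC replicates 1 and 2 had 8.96 and 8.44 and the PRR37 library 8.22. The ELF3 mean of 9.09 ± 0.76 (SD, n = 6) and the PHYC and PRR37 mean of 8.54 ± 0.38 (SD, n = 3) differed by less than the spread between libraries (difference 0.55, exact two-sided permutation test, p = 0.321). Both the scaled pileup and the background reached their highest values among the 51 peaks here. The lists share the same background value of 4 at this site, and the study's text does not state which library supplied it.

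CBF3 had 2 other sites of its own. Near its lower end, peaks were listed in ELF3 LD ZT0 and ELF3 SD ZT20 with summits 144 and 218 bp inside the gene and folds of 2.40 and 2.27, and in the PRR37 library with a summit 307 bp outside and a fold of 1.98. A peak 424 bp beyond the upper end of CBF3 appeared in the PRR37 library alone, with a fold of 2.63 and a −log10 p of 2.76, and it was that library's strongest peak at CBF3.

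CBF2 was represented almost wholly by the gap it shares with CBF3. A site from 40871399 to 40872039 was listed in 7 libraries, with summits 1268 to 1532 bp beyond the upper end of CBF2. The fold was 2.51, 1.85 and 2.04 in ELF3 libraries of ZT0 in LD, SD and LL and 2.49 in ELF3 SD ZT20. ELF3 LD ZT4, SD ZT4 and LD ZT20 had no peak there. It was 2.58 and 2.25 in PHYC replicates 1 and 2 and 2.75 in the PRR37 library, so the site was listed in 4 of 7 ELF3 libraries and in all 3 of the other proteins. Of these 7 peaks, 5 overlapped both windows and count for CBF2 and CBF3 alike. The only peak close to CBF2 itself lay 159 bp outside its lower end, in the PRR37 library, with a fold of 2.23.

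CBF7 had peaks in every library, mostly outside the gene. The site spanned 40905882 to 40906954, and its summits lay 1726 to 2019 bp beyond the upper end of CBF7. The 7 ELF3 libraries and PHYC replicate 2 fell between 1726 and 1780 bp, whereas PHYC replicate 1 and the PRR37 library had the farthest summits, at 2019 and 1949 bp. The scaled pileup was 8.91, 6.93 and 8.05 in ELF3 libraries of ZT0 in LD, SD and LL, 7.38 and 6.68 in ELF3 LD ZT4 and SD ZT4, and 9.60 and 7.52 in ELF3 LD ZT20 and SD ZT20. It was 8.10 and 9.26 in PHYC replicates 1 and 2 and 7.94 in the PRR37 library, on a local background of 3 in all 10 lists. ELF3 averaged 7.87 ± 1.06 (SD, n = 7), against 8.44 ± 0.72 (SD, n = 3) for PHYC and PRR37 (difference −0.57, exact two-sided permutation test, p = 0.408, smallest possible p = 0.00833). In ELF3 libraries the LD value was above the SD value at each of the 3 times, with all intervals overlapping. This site sits at the edge of the 2 kb window, and with genes extended by 1 kb CBF7 is listed only where its second site is.

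**Figure D3:**
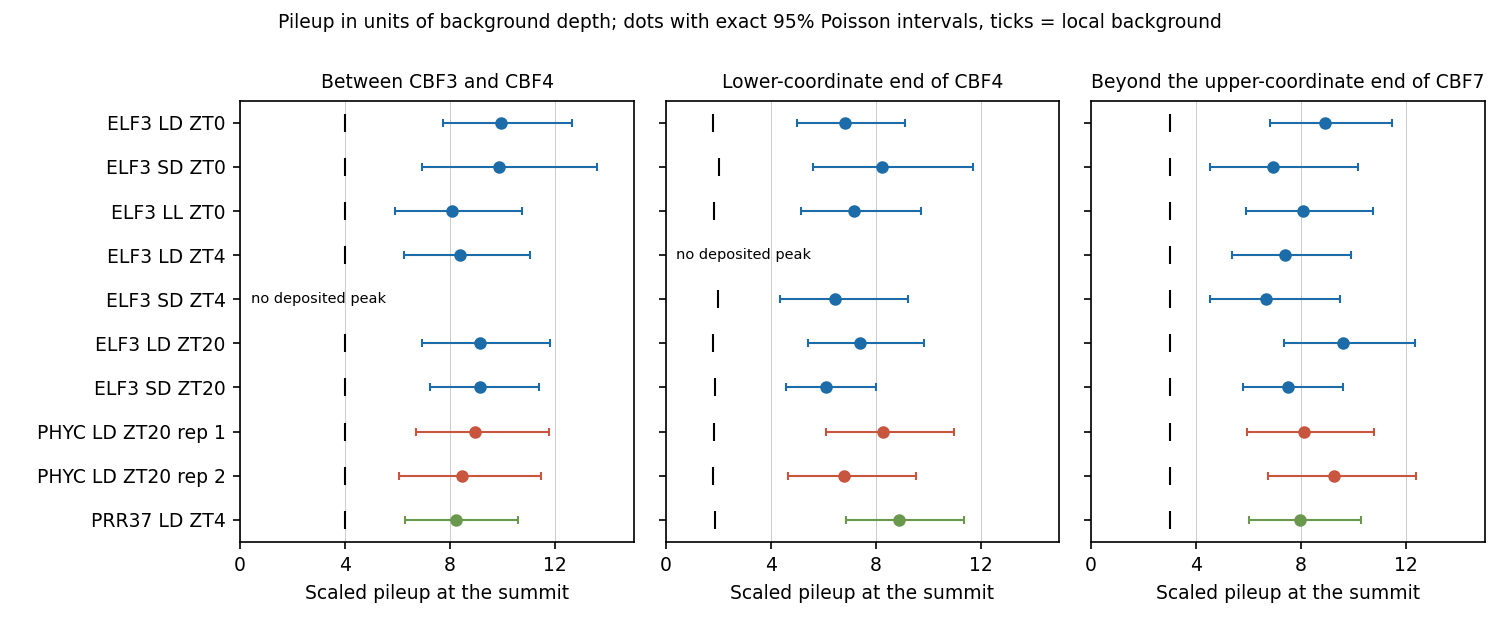
Scaled pileup at the summit (dots, in units of background depth) with exact 95% Poisson intervals, and local background (ticks), at the 3 sites listed in 9 or 10 libraries, with 1 row per library. ELF3 libraries are blue, PHYC red and PRR37 green. The intervals overlap across targets in each panel, and the missing values are ELF3 SD ZT4 between CBF3 and CBF4 and ELF3 LD ZT4 at the end of CBF4.

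The second site of CBF7 lay inside the gene, 147 to 180 bp from its upper end, and was listed in 5 libraries. The fold was 2.05 and 2.82 in ELF3 SD ZT0 and LL ZT0 and 2.58 in ELF3 SD ZT20, against 2.06 in PHYC replicate 2 and 2.18 in the PRR37 library. The LL ZT0 value came with a −log10 p of 3.32, the highest of any CBF7 peak. None of the 3 ELF3 libraries from LD and neither PHYC replicate 1 nor ELF3 SD ZT4 listed it. The 2 PHYC libraries, which carry the same labels, differed here and at CBF5 in whether a peak was listed at all.

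CBF5 was the least marked of the genes. Its window held 5 peaks in 5 libraries at 4 different sites. ELF3 LD ZT0 had a peak 24 bp inside the lower end with a fold of 1.81 on 24 fragments. ELF3 SD ZT0 and SD ZT20 had peaks 147 and 104 bp beyond the upper end with folds of 1.92 and 1.58, toward the neighbouring pseudogene. PHYC replicate 2 had a peak 1505 bp from the lower end, inside the neighbouring gene LOC100840362, with a fold of 2.13, and the PRR37 library had one 968 bp from the lower end with a fold of 2.18. ELF3 LL ZT0, LD ZT4, SD ZT4 and LD ZT20 and PHYC replicate 1 had none.

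The strongest peak of each gene was next ranked within its own list, as a percentile in which 100 is the peak with the highest −log10 p and 0 means no deposited peak. Among genes with a deposited peak, the median of this percentile lay between 59.0 (PHYC replicate 1) and 61.7 (ELF3 LD ZT0), depending on the library. That background leaves out genes without a peak, whereas the CBF medians below count a missing peak as 0. The order of the ELF3 medians was CBF4 at 69.8, CBF7 at 65.7, CBF3 at 43.3, CBF2 at 12.0 and CBF5 at 0. ELF3 values ranged from 0 to 84.8 at CBF4, from 17.1 to 82.4 at CBF7, from 0 to 57.9 at CBF3, from 0 to 53.7 at CBF2 and from 0 to 12.0 at CBF5, so neighbours in this order overlap. In PHYC replicates 1 and 2 and the PRR37 library the percentiles were 88.7, 75.7 and 95.9 at CBF4, 61.7, 83.0 and 61.0 at CBF7, 48.9, 44.3 and 84.4 at CBF3, 48.9, 44.3 and 79.5 at CBF2, and 0, 52.0 and 55.2 at CBF5. Percentiles depend on the list as well as on the site: a −log10 p of 3.89 stood at percentile 88.7 in PHYC replicate 1, and one of 3.82 at 95.9 in the PRR37 list, where 95.5% of peaks had a q of 1.

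**Figure D4:**
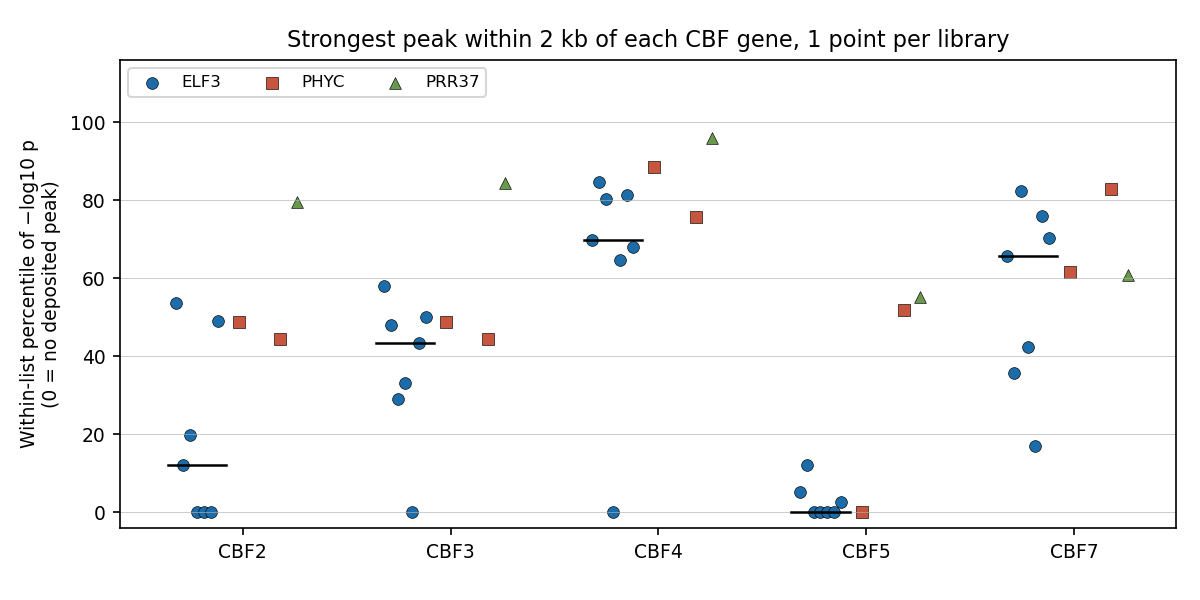
Within-list percentile of the strongest peak within 2 kb of each CBF gene, 1 point per library, with 0 for no deposited peak and a black bar at the median of the 7 ELF3 libraries. ELF3 points (blue, left) lie left of PHYC (red) and PRR37 (green) for each gene. CBF4 has the highest ELF3 median, 69.8, and at CBF5 the ELF3 points stay at or below 12.0.

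Comparing ELF3 with PHYC and PRR37 asks whether the CBF genes rank differently among the sites of the proteins. Across 19207 protein-coding genes with a deposited peak in at least 1 library, 0 genes passed an adjusted p of 0.05 in this comparison, and 7.97% had an unadjusted p at or under 0.05. The next comparisons, of times and photoperiods, also gave 0 genes. That was practically fixed beforehand, since their exact permutation tests cannot give a p below 0.0476 and 0.25. All 5 CBF genes had lower mean percentiles in ELF3 libraries than in those of PHYC and PRR37, and none reached an unadjusted p of 0.05. The share of all genes with a lower ELF3 mean is not given here, so the common direction is not read as a result. Nor are the 5 genes independent, since the PHYC values at CBF2 and CBF3 come from the same peaks. The largest difference was at CBF2, with 19.2 ± 23.2 (SD, n = 7) for ELF3, against 57.6 ± 19.1 (SD, n = 3) for PHYC and PRR37 (difference −38.4 points, exact two-sided permutation test, p = 0.0583, Benjamini-Hochberg adjusted p = 0.580). All 3 libraries of the other proteins lay above 5 of the 7 ELF3 libraries there. At CBF5 the means were 2.85 ± 4.52 for ELF3 and 35.7 ± 31.0 for the others (difference −32.9, exact permutation p = 0.0667, adjusted p = 0.580).

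The remaining differences between ELF3 and the other proteins were smaller. They were −22.6 points at CBF4, −21.8 at CBF3 and −12.9 at CBF7, with exact permutation p-values of 0.267, 0.183 and 0.433 and adjusted p-values of 0.828, 0.828 and 0.941. The median difference over all tested genes was 3.81 points. With 7 libraries against 3 the smallest p was 0.00833, and the smallest adjusted p over all genes was 0.379, so no gene was called in this comparison. Target, time and photoperiod also cannot be told apart in this comparison, since PHYC was sampled only at LD ZT20 and PRR37 only at LD ZT4.

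At matched conditions only single libraries can be set side by side. At LD ZT20, the percentiles in ELF3 were 0 at CBF2, 43.3 at CBF3, 81.5 at CBF4, 0 at CBF5 and 75.9 at CBF7, and both PHYC values given above exceeded the ELF3 one at CBF2 and CBF3. Those PHYC values are the same peaks for both genes, in the gap between CBF2 and CBF3, whereas the ELF3 value at CBF3 comes from the gap between CBF3 and CBF4. In that second gap the scaled pileup was 9.12 in ELF3 LD ZT20 and 8.96 and 8.44 in PHYC replicates 1 and 2. At LD ZT4, ELF3 had 0 at CBF2, 33.1 at CBF3, 0 at CBF4, 0 at CBF5 and 42.4 at CBF7, and the PRR37 library was higher at all 5 genes. At CBF3 and CBF7 the PRR37 value comes from another site than the ELF3 one. The scaled pileup in the gap between CBF3 and CBF4 was 8.39 in ELF3 LD ZT4 and 8.22 in the PRR37 library. Beyond the upper end of CBF7 it was 7.38 and 7.94. With 1 library on at least 1 side, these contrasts have no test.

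Comparing times asks whether the CBF genes rank differently at ZT20 than at ZT0 and ZT4. By the study's day lengths the 2 ZT20 libraries differ in light state, with LD at lights off and SD in the night. The earlier group includes the LL library of ZT0, which has no LL counterpart at ZT20. ELF3 means at ZT20 (n = 2) and at ZT0 and ZT4 (n = 5) were 24.5 and 17.1 at CBF2, 46.7 and 33.6 at CBF3, 74.7 and 59.9 at CBF4, 1.35 and 3.46 at CBF5, and 73.2 and 48.7 at CBF7. Exact two-sided permutation p-values lay between 0.286 (CBF7) and 0.952 (CBF2), with a smallest possible p of 0.0476, and all 5 adjusted p-values were 1. Of all genes tested, 3.06% had an unadjusted p at or under 0.05, and no CBF gene was among them. The wide ELF3 spread at CBF4 came from 1 library: without ELF3 LD ZT4 the difference of 14.8 points became −0.20.

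Comparing photoperiods asks whether ELF3 differed between LD and SD at the same time. The mean differences, LD minus SD, over 3 times were −2.45 points at CBF2, 12.1 at CBF3, −22.0 at CBF4, −3.16 at CBF5 and 20.3 at CBF7. The exact sign-flip permutation test over 3 times cannot give a p below 0.25, and this was reached by CBF7 alone (adjusted p = 1 for all 5 genes), where LD was above SD at all 3 times (65.7 against 35.7 at ZT0, 42.4 against 17.1 at ZT4, and 75.9 against 70.4 at ZT20). With genes extended by 1 kb, which drops the outer CBF7 site, that difference turned to −35.4 points. The 5 genes did not move in one direction. At CBF4 the difference again rested on ELF3 LD ZT4, where no peak was listed.

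The number of deposited peaks over the cluster as a whole also differed between libraries. Counting summits from 2 kb before CBF2 to 2 kb beyond CBF7, a span of 39.7 kb, there were 8, 7 and 7 in ELF3 libraries of ZT0 in LD, SD and LL, 2 in each of ELF3 LD ZT4 and SD ZT4, 3 in ELF3 LD ZT20 and 9 in ELF3 SD ZT20. PHYC replicates 1 and 2 had 5 and 9 and the PRR37 library had 14. In 6818 tiles of the same length the median was 1 or 2 in every library and the upper quartile 3 or 4. These tiles run along whole chromosomes and were not matched to the cluster for the number of genes they hold. At the same condition, LD ZT4, ELF3 and PRR37 thus had 2 and 14 peaks in the cluster, with 14884 and 12933 peaks in their lists and depths of 5.96 and 7.30 times the background. The part of depth in this difference was not tested. The depths of the ELF3 libraries were 6.73, 3.75 and 5.71 at ZT0 (LD, SD and LL), 5.96 and 4.64 at ZT4 (LD and SD), and 6.36 and 8.65 at ZT20 (LD and SD). The deepest of them, SD ZT20, had the most peaks in the cluster among ELF3 libraries, 9, while the shallowest, SD ZT0, had 7.

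The rule for other cold-response genes by symbol (CBF, DREB, ICE, COR, dehydrin and similar names) found 0 genes besides the members, so the targets of CBF proteins could not be followed here. Of genes that act in cold signalling in Arabidopsis, the table names LOS4, a DEAD-box RNA helicase, and the mitogen-activated protein kinases MPK3 and MPK6, which act on the CBF regulator ICE1. These 3 were chosen outside that rule. None had a peak past q 0.01. LOS4 was listed in 4 libraries with a −log10 p of at most 2.14, and MPK3 in 9 with at most 2.96. MPK6 was listed in all 10, with a −log10 p from 2.55 to 5.31. The median percentile over the 10 libraries was 78.1 for CBF4, the highest among the CBF genes, and 88.1 for MPK6.

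The genes beside the cluster also had no peak past the threshold. LOC100830551, which precedes CBF2, was listed in 6 libraries and LOC100831768, which follows CBF7, in 8. Of the 3 genes between CBF4 and CBF5, LOC106866613 and LOC100840062 were listed in 7 libraries and LOC100840362 in 5, with a shared highest −log10 p of 3.85. The genes whose percentiles over the 10 libraries were nearest to a member's, by mean absolute difference and at least 10 kb away, were LOC100836317 and LOC100836622 for CBF4 (both 6.16 points), LOC100833538 for CBF2 (5.48), LOC100820908 for CBF3 (9.15), LOC100832301 for CBF5 (2.19) and LOC100835954 for CBF7 (7.78). The second nearest were LOC100845767 for CBF2 (7.41), LOC100821441 for CBF3 (9.24), LOC100833530 for CBF5 (2.26) and LOC100840811 for CBF7 (8.85). All of them had 0 libraries past q 0.01, which follows largely from how they were picked and is no separate result.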

How the data were processed

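The CBF genes and the gene lists were chosen with earlier results of these data known. For mapping, the study's methods name bwa with a Brachypodium genome, followed by removal of duplicates and MACS2 peak calls. The submitters' processing notes instead name Bowtie2 and an Arabidopsis build. The deposited lists, 1 per library with 12345 to 16458 peaks, hold a fold (ratio) to background, −log10 p and −log10 q, a score and the summit offset, and reach down to a p-value of 0.1. The input sample had no list analysed here. Library totals are not in the sources used here, and depth was recovered from fold and −log10 p: a whole-number background explained 22.1% to 25.1% of peaks per library (at most 0.0877% with 0.37 added), and 98.5% to 99.98% of peaks had 1 solution. Scripts were tested on simulated data. Gene positions came from the RefSeq table, and 60.6% of the 3965 stronger summits of chromosome 4 (−log10 p above 3) were no more than 500 bp away from a gene end, against 19.3% and 20.3% with genes shifted by 2000 and 10000 bp. Only coordinates of deposited peaks are printed, counted from 1. Genes were extended by 2 kb. Percentiles were compared by exact permutation with Benjamini-Hochberg adjustment over all tested genes. The named genes were all members, the nearest annotated genes, and the 2 nearest in percentile pattern. Planned searches of promoter and protein sequence were not run, since no sequence was used here. Recovered depth, tiles and the 3 kinase and helicase genes were chosen after seeing the data. Scripts ran in Python 3.11.15 with scipy 1.17.1, pandas 2.3.3 and numpy 2.4.6.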

Additional observations from a re-analysis of the deposited data

Results flagged for a closer look

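In 10 comparisons of single ELF3 libraries with the other ELF3 libraries, 1 stood apart: CBF4 had a within-list percentile of 0 in ELF3 LD ZT4, where its list holds no peak at the gene, against 64.6 to 84.8 in the other 6 ELF3 libraries. The gap to the nearest library was 0.762 of the whole range of the 7. For measured values chance sets about 1 in 20 such comparisons apart, a rate that need not hold here, where 0 stands for a peak that is not listed. The same library did list the neighbouring site between CBF3 and CBF4, with a fold of 1.88 on 50 fragments.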

How the results depend on the processing

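The 0 pairs of CBF gene and library past q 0.01 stayed 0 with q under 1e-05, with genes extended by 1 kb or not at all, with summits required inside the extended gene, and without any 1 library. They became 40 with peaks as deposited and 1 (CBF4 in the PRR37 library) among the 1000 strongest peaks of each list. The 40 pairs with a deposited peak became 22 with an extension of 1 kb, 20 with none and 26 with −log10 p above 2, and 35 to 38 when each library was left out in turn. The 13 sites stayed within 1.5 times that number under 50% reciprocal overlap and under summits within 200 bp, and 3 sites were listed in 9 or 10 libraries under both.

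No CBF gene passed an unadjusted p of 0.05 between ELF3 and the other proteins, but 1 did with percentiles ranked on fold (CBF3, −41.6 points, exact permutation p = 0.0333) and 1 with the mean of the PHYC pair as 1 sample (CBF5, −37.7 points, exact permutation p = 0.0278). Leaving out libraries gave 0 to 1: CBF2 without ELF3 LD ZT0 (−44.1) or ELF3 SD ZT20 (−43.3), and CBF5 without PHYC replicate 1 (−50.7). The lowest adjusted p of a CBF gene over these alternatives was 0.448. The counts for times and photoperiods were also 0, but this says nothing about stability: the photoperiod test cannot reach 0.05, and neither can the time test once a library is left out, where the smallest possible p is 0.0667 or, with 1 ZT20 library, 0.167. Directions that reversed, none past an unadjusted p of 0.05, were for ZT20 against earlier times CBF2 (−0.0259) and CBF5 (0.0103) on the −log10 p scale, CBF5 without ELF3 SD ZT0 (0.0327; leaving out single libraries gave −3.46 to 0.0327), CBF4 without ELF3 LD ZT4 (−0.20) and CBF2 without ELF3 SD ZT20 (leaving out single libraries gave −17.1 to 31.9), and for LD against SD CBF7 with a 1 kb extension (−35.4) and CBF2 without ZT20 (leaving out single times gave −24.5 to 20.8). Their causes were not tested.

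Depth limits the sites: with 24 to 79 fragments at a summit, differences between libraries below about the width of the intervals were not detectable, and a library without a deposited peak gives no value.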
